A study of Mus musculus with 26 samples.

Results

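Chemokines are small secreted proteins that guide leukocytes into tissue, and their receptors are the G protein-coupled receptors through which those cells read them. The chemokine and chemokine receptor genes of mouse epididymal fat were taken as every row of the adipocyte and stromal vascular tables whose symbol begins with Ccl, Cxcl, Ccr or Cxcr followed directly by a digit, or equals Cx3cl1, Cx3cr1, Xcl1 or Xcr1. This gave 63 of the 39017 gene identifiers, which carry 60 symbols. Of these identifiers, 44 are ligands, counting 2 pseudogene symbols (Ccl19-ps1 and Ccl19-ps3), and 19 are receptors. No read was counted in any library for 6 identifiers (Ccl19-ps3, Ccl21b, Ccl26, Ccl27b and 2 of the Ccl21c identifiers), and the members too low to test in adipocytes stayed at or below 0.843 CPM there, the highest value being that of Ccl17 in an SW library.

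Wild type male C57BL/6J mice were put on one of the diets at 9 to 10 weeks of age. Lean mice received a 10% fat diet for 12 weeks (LFD), obese mice a 60% fat diet for 12 weeks (HFD), and formerly obese mice the 60% fat diet for 9 weeks and then the 10% fat diet for 3 weeks (SW). Collagenase released the cells of the epididymal fat pads and a spin parted them, which leaves the adipocytes in the supernatant and the stromal vascular cells (SVC), a mixture of immune, endothelial and progenitor cells, in the pellet. Poly(A) RNA was sequenced from 3 adipocyte libraries per diet and, in SVC, from 1 LFD, 2 HFD and 3 SW libraries. The study counts its replicates as biological ones, but no source used here says whether a library holds the RNA of 1 mouse or of several, so p-values measure the spread between these libraries. Each column carries a number found in no label, which is used below as the name of the library.

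Chemokines are grouped by the spacing of their first cysteines into CC (Ccl), CXC (Cxcl), CX3C and XC ligands, and most receptors bind several ligands of the same class. In fat, obesity is known for a gain of macrophages that express Ccr2 and arrive as monocytes, for crown-like groups of macrophages around dying adipocytes, and for the release of Ccl2 by adipocytes and macrophages. Neutrophils follow the CXC ligands that carry an ELR sequence (Cxcl1, Cxcl2), activated T cells follow the interferon-induced ligands of Cxcr3 (Cxcl9, Cxcl10), and naive lymphocytes and dendritic cells follow Ccl19 and Ccl21 through Ccr7. Chemokine genes of the same class often lie side by side. In the RefSeq order of protein-coding genes, Ccl5, Ccl9, Ccl6, Ccl3 and Ccl4 are neighbours, as are Ccl2, Ccl7, Ccl11, Ccl12, Ccl8 and Ccl1, and as are Cxcr6, Xcr1, Ccr1, Ccr1l1, Ccr3 and Ccr2.

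The promoters of 5 ligands are shown so that the letters upstream of neighbouring or related ligands can be compared. Each is the 250 bases before the RefSeq start of the gene in GRCm38.p6, read 5′ to 3′ on the strand of the gene. Capitals mark matches on either strand to the kappaB motif, the site of NF-kappaB, searched as GGG followed after any 3 bases by TTCC, and to the ISRE motif, the site of interferon-regulated factors, searched as GAAA followed after any 2 bases by GAAA. In Cxcl1 and Cxcl2, overlapping matches on both strands form a single longer run of capitals and were counted as 1 match. Cxcl1 and Cxcl2 are the neighbouring ELR ligands that could be tested, Cxcl10 is the member with matches to both motifs, and Ccl9 and Ccl6 are neighbouring CC ligands of high level.
Cxcl1 (chr5:90890995-90891244, plus strand): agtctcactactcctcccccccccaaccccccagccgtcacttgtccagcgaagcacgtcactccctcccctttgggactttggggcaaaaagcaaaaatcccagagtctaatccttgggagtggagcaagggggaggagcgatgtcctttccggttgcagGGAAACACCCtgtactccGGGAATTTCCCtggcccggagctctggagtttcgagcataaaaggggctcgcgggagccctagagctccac
Cxcl2 (chr5:90903649-90903898, plus strand): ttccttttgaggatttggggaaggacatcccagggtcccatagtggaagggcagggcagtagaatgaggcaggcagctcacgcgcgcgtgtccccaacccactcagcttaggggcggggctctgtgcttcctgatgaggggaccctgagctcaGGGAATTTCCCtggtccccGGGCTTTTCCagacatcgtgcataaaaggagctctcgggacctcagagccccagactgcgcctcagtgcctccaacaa
Cxcl10 (chr5:92348890-92349139, minus strand): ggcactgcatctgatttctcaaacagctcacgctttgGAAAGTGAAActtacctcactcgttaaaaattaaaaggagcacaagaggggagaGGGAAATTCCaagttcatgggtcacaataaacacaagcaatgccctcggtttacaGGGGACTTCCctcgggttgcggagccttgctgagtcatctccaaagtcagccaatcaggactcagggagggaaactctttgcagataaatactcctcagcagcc
Ccl9 (chr11:83578637-83578886, minus strand): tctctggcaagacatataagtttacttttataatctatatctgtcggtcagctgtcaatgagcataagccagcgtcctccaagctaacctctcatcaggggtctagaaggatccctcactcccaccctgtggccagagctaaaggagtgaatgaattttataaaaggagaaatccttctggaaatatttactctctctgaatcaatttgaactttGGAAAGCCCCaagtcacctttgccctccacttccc
Ccl6 (chr11:83593088-83593337, minus strand): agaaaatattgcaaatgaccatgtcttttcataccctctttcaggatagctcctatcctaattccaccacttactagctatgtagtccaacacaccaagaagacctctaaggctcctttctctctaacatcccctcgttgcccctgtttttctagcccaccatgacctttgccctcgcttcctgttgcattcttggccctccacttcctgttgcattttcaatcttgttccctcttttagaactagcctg

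The kappaB letters occurred in 4.65% of the 32851 RefSeq promoters of this length, and 0.103% held 2 or more separate matches. Of the 42 member symbols with a promoter in the table, 9 had a kappaB match, and Cxcl1, Cxcl2, Cxcl3 and Cxcl10 each had 2. Ccl9 had 1 kappaB match and its neighbour Ccl6 had 0. The ISRE letters occurred in 2.98% of promoters and in 3 member symbols, Cxcl10, Cxcl14 and Ccl19. These matches describe the letters of the window and are no measurement of binding.

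Libraries held from 5781902 to 23725647 counts, and values are given as CPM, counts scaled to library size in the same way for all 15 libraries. Markers of several cell types moved with diet in the adipocyte libraries. All 11 macrophage markers rose with HFD, and their summed level was 586 to 1029.7 CPM in LFD, 7921 to 9241 CPM in HFD and 5652 to 8080.4 CPM in SW libraries. Of 11 adipocyte markers, 9 fell with HFD, and their sum was 28967 to 46583 CPM in LFD, 10685 to 18167 CPM in HFD and 25539.7 to 26222 CPM in SW libraries. The sum of 10 T cell and NK cell markers was at most 16.2 CPM in LFD and HFD libraries and was 48.7, 28.9 and 10.2 CPM in SW libraries 407, 408 and 409. Of 6 fibroblast and progenitor markers, 4 rose with HFD, and their sum was 1463 to 2244 CPM in LFD, 4903 to 6689 CPM in HFD and 3052 to 3458 CPM in SW libraries. Of 6 endothelial markers 4 fell with HFD, from a sum of 1039 to 1313 CPM in LFD to 560 to 1075 CPM in HFD and 509.8 to 690 CPM in SW libraries, and of 5 mesothelial markers 3 fell, from 55.9 to 86.6 CPM to 9.79 to 27.5 CPM and 18.4 to 29.2 CPM. The sum of 5 dendritic cell markers was 49.4 to 69.9 CPM in LFD, 199 to 313 CPM in HFD and 171 to 228 CPM in SW libraries, although with HFD only Itgax, which macrophages also express, rose and Zbtb46 and Cd209a fell. No macrophage marker was at 0 in any library. Of 5 neutrophil markers, Ly6g was at 0 in all 9 adipocyte libraries and in 4 of 6 SVC libraries. Retnlg was at 0 in 2 adipocyte libraries. The neutrophil marker sum was 7.72 to 20.4 CPM in LFD, 16.4 to 26.1 CPM in HFD and 12.3 to 17.8 CPM in SW libraries. Of the 4 neutrophil markers tested, 1 rose with HFD. For this list and those above, 26.5% of all genes rose and 25% fell with HFD. The part of any of these cells in the results below was not tested, and in such bulk RNA fewer cells of a type and less RNA per cell cannot be told apart. In SVC, the HFD libraries stood apart from each other: mitochondrial genes took 33.5% of counts in library 411 and 6.34% in library 212, against 4.36% to 9.54% in the other SVC libraries. In libraries 212 and 411 the marker sums were 10289 and 20908 CPM for macrophages, 26.6 and 150 CPM for mesothelial cells, and 10650 and 7341 CPM for fibroblasts and progenitors.

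Between LFD and HFD adipocyte libraries, chemokine genes differed in both directions. The share of tested members that passed, 47.5%, was near the 51.5% of all genes. Of the 40 members that passed the filter on low counts, 14 rose and 5 fell between LFD and HFD libraries (edgeR quasi-likelihood test, Benjamini-Hochberg adjusted p under 0.05), or 35% and 12.5%, against 26.5% and 25% of the 14461 genes tested (51.5% in either direction). Regardless of the test, 19 members were higher and 5 lower in every HFD than in every LFD library, against 33% and 29.2% of all genes. The median log2 fold change was 0.48 over the members and -0.03 over all genes. After the switch, 12 members were higher and 3 lower in SW than in HFD libraries, or 30% and 7.5%, against 15.6% and 15.9% of all genes (31.4% in either direction), and the libraries did not overlap for 14 higher and 5 lower members, against 22.3% and 26.1%. Compared with LFD, 18 members, or 45%, were higher in SW libraries, against 10.9% of all genes (17.1% in either direction). Likewise 18 members were higher in every SW than in every LFD library, against 19.4% of all genes, and none was lower in all, against 17%. None was lower in SW than in LFD libraries by edgeR, by DESeq2 or by limma-voom, against 6.18% of all genes, and 1 was lower at an unadjusted p under 0.05. These comparisons share libraries, so their values are set side by side for each gene and not counted together.

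**Figure D1:**
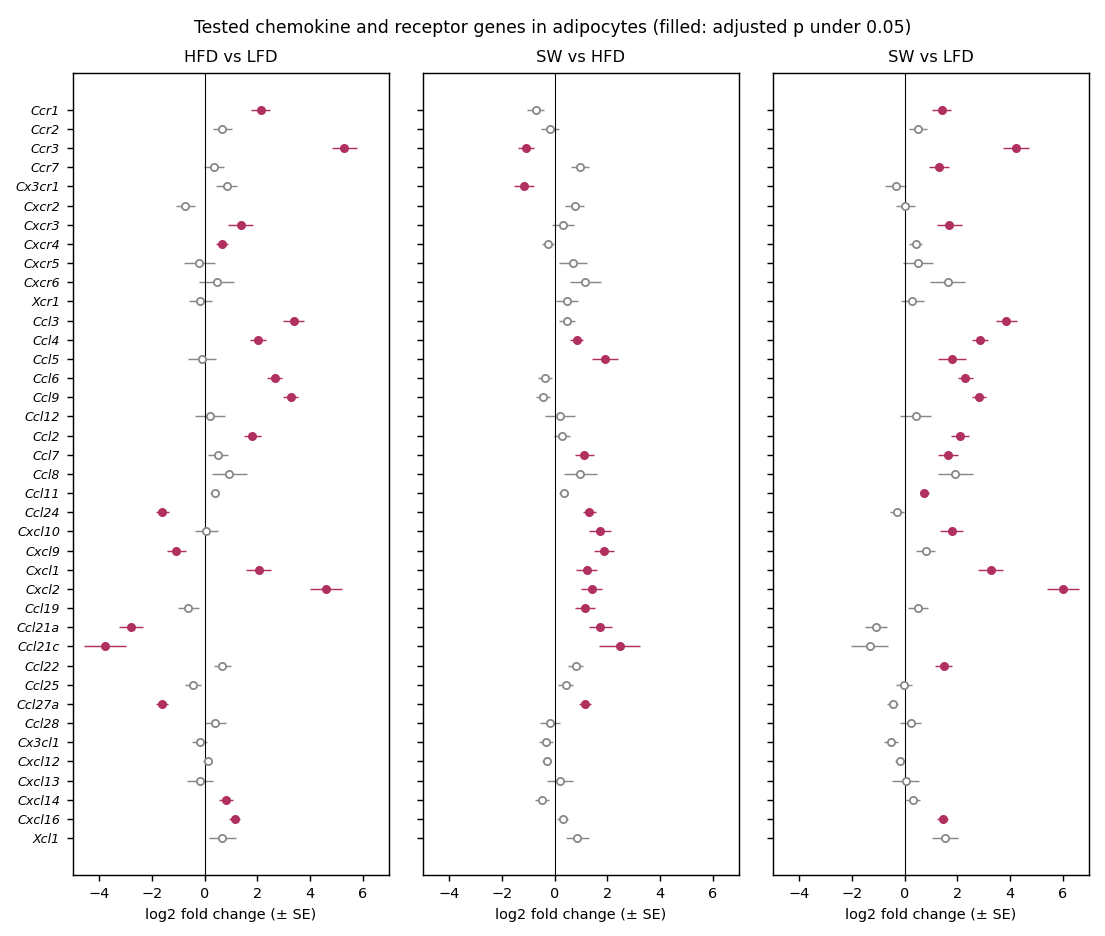
Log2 fold changes (x axis) with their SE for 39 of the 40 tested members (y axis) in adipocytes, for HFD against LFD, SW against HFD and SW against LFD. Filled points have an adjusted p under 0.05; in SW against LFD all 17 filled points lie to the right of 0.

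Among the ligands of Ccr2, the receptor of inflammatory monocytes, Ccl2 rose with HFD and Ccl7 rose after the switch. Ccl2 measured 20.4, 20.9 and 8.08 CPM in LFD libraries 404, 405 and 406, 47.2, 78.3 and 51.7 CPM in HFD libraries 401, 402 and 403, and 75.7, 54.9 and 83.9 CPM in SW libraries 407, 408 and 409, an order of libraries kept in the values below. All HFD and SW libraries were thus above all LFD libraries, and HFD and SW overlapped. Ccl2 was 3.51-fold higher in HFD than in LFD (log2 fold change 1.81 ± 0.33 SE, adjusted p = 0.0015) and 4.28-fold higher in SW than in LFD (adjusted p = 0.0019), while SW against HFD gave 0.29 ± 0.31 (adjusted p = 0.50). Ccl7, a monocyte attractant coded beside Ccl2, measured 21.2, 28.9 and 10.7 CPM in LFD, 22.8, 42.6 and 23.7 CPM in HFD and 59.3, 46.7 and 87.5 CPM in SW libraries. Only the SW libraries stood apart for Ccl7, 2.19-fold above HFD (log2 1.13 ± 0.36 SE, adjusted p = 0.039) and 3.11-fold above LFD (adjusted p = 0.014). Without SW library 407 or 409 or HFD library 401 or 403, the difference of Ccl7 from HFD was not past the threshold (adjusted p up to 0.13). With a filter of at least 1 count in any library, SW passed for Ccl7 neither against HFD nor against LFD. Ccl8 and Ccl12, the other ligands in this group, did not pass in edgeR in any of these comparisons, and Ccl12 passed under no alternative. For Ccl8, SW against LFD passed by DESeq2 (log2 1.96, adjusted p = 0.044) and without SW library 409 (2.37, adjusted p = 0.016), with adjusted p up to 0.28 over the other alternatives. Ccl8 measured 25.4, 34.5 and 9.98 CPM in LFD, 32.6, 54.3 and 51.3 CPM in HFD and 184, 61.2 and 25.1 CPM in SW libraries.

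The inflammatory ligands Ccl3, Ccl4, Ccl5, Ccl6 and Ccl9, which act on macrophages, T cells and granulocytes, rose with HFD in 4 of 5 cases. Their median log2 fold change was 2.65 against -0.03 for all genes, and all 5 were higher in SW than in LFD. Ccl9 (MIP-1 gamma) measured 106, 84.5 and 52.5 CPM in LFD, 723, 764 and 863 CPM in HFD and 716, 523 and 474 CPM in SW libraries. It was 9.54-fold higher in HFD than in LFD (log2 3.25 ± 0.28 SE, adjusted p = 1.8e-05) and 7.02-fold higher in SW than in LFD (adjusted p = 0.00011). Ccl6, its neighbour and a ligand of Ccr1, measured 124, 117 and 67.8 CPM in LFD, 605, 631 and 731 CPM in HFD and 673, 468 and 382 CPM in SW libraries. Neither HFD nor SW libraries overlapped LFD for Ccl6, at 6.28-fold in HFD (log2 2.65 ± 0.28 SE, adjusted p = 5.8e-05) and 4.91-fold in SW (adjusted p = 0.00039). For both genes SW against HFD was negative and not past the threshold (Ccl9 -0.44 ± 0.25, adjusted p = 0.20; Ccl6 -0.35 ± 0.26, adjusted p = 0.32).

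Ccl3 and Ccl4 (MIP-1 alpha and beta), ligands made by activated macrophages and T cells, were scarce in lean adipocyte libraries. Ccl3 measured 0.418, 1.24 and 0.475 CPM in LFD, 11.5, 7.89 and 7.6 CPM in HFD and 16.9, 11.8 and 8.74 CPM in SW libraries, which is 10.4-fold for HFD (log2 3.38 ± 0.40 SE, adjusted p = 0.00012) and 14.5-fold for SW (adjusted p = 0.00016) above LFD. Ccl4 measured 0.837, 1.38 and 1.31 CPM in LFD, 5.24, 4.44 and 5.46 CPM in HFD and 12.4, 8.1 and 6.62 CPM in SW libraries. The 3 diets did not overlap for Ccl4, which was 4.06-fold higher in HFD than in LFD (log2 2.02 ± 0.30 SE, adjusted p = 0.00041) and 1.8-fold higher in SW than in HFD (log2 0.84 ± 0.25 SE, adjusted p = 0.029). That last call was lost without any 1 of HFD libraries 401, 402 and 403 or SW library 407 (adjusted p up to 0.087). Ccl5 (RANTES), a T cell product, measured 4.32, 7.14 and 4.87 CPM in LFD, 4.9, 3.3 and 7.6 CPM in HFD and 34.8, 17.7 and 7.13 CPM in SW libraries. Its rise over HFD (log2 1.91 ± 0.50 SE, adjusted p = 0.02) lay in SW libraries 407 and 408, and library 409 overlapped HFD. Without SW library 407 or HFD library 401 or 402 the call was lost (adjusted p up to 0.075), as it was with at least 1 count in any library (0.083). Against LFD (log2 1.80 ± 0.52 SE, adjusted p = 0.039) the call was lost without SW library 407 or 408 or any LFD library (adjusted p up to 0.12). It was also lost by limma-voom, with at least 1 count in any library and in a fit of SW and LFD libraries alone (adjusted p up to 0.15).

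The ligands of Ccr3, the eosinophil receptor, did not follow one pattern. Ccl24 (eotaxin-2) measured 7.11, 14.0 and 13.2 CPM in LFD, 3.02, 4.21 and 4.29 CPM in HFD and 11.3, 9.6 and 7.84 CPM in SW libraries. It was 3.03-fold lower in HFD than in LFD (log2 -1.60 ± 0.26 SE, adjusted p = 0.00072) and 2.49-fold higher in SW than in HFD (log2 1.32 ± 0.26 SE, adjusted p = 0.0079), with no overlap in either, while SW and LFD overlapped. Ccl11 (eotaxin-1), a product of fibroblasts, measured 57.6, 55.6 and 38.9 CPM in LFD, 73.4, 58.8 and 70.1 CPM in HFD and 81.9, 97.5 and 76.9 CPM in SW libraries. In edgeR it passed only in SW against LFD (1.68-fold, log2 0.74 ± 0.17 SE, adjusted p = 0.015), a call lost without SW library 408 (adjusted p = 0.053). Of the alternatives, Ccl11 also passed in HFD against LFD without HFD library 402 (log2 0.50, adjusted p = 0.044) and in SW against HFD after a correction for GC content (0.46, adjusted p = 0.043). Ccl26 had no read in any library.

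Of the ELR ligands, the attractants of neutrophils, Cxcl2 showed the largest fold change with HFD of all ligands tested. Both Cxcl2 and Cxcl1 rose again after the switch. Cxcl2 (MIP-2) measured 1.53, 0.737 and 0.356 CPM in LFD, 30.6, 22 and 8.41 CPM in HFD and 41.6, 70 and 47 CPM in SW libraries, with no overlap between any diets. Cxcl2 was 24.3-fold higher in HFD than in LFD (log2 4.60 ± 0.59 SE, adjusted p = 0.00019), 2.64-fold higher in SW than in HFD (log2 1.40 ± 0.40 SE, adjusted p = 0.027) and 64.1-fold higher in SW than in LFD (adjusted p = 0.00011). These fold changes from LFD rest on few LFD counts, and Cxcl2 was too low to test in adipocytes with at least 10 counts in every library. The promoters of Cxcl2 and Cxcl1 printed above each hold 2 kappaB matches. Cxcl1 (KC), which lies next to it, measured 5.44, 4.1 and 2.14 CPM in LFD, 16.8, 24.2 and 7.8 CPM in HFD and 22.5, 41.1 and 48.4 CPM in SW libraries. It was 4.12-fold higher in HFD than in LFD (log2 2.04 ± 0.47 SE, adjusted p = 0.0049), and SW exceeded HFD by 2.32-fold, although SW library 407 lay below HFD library 402 (log2 1.22 ± 0.40 SE, adjusted p = 0.044). The SW against HFD calls were lost without HFD library 402 or 403 or SW library 408 for Cxcl2 (adjusted p up to 0.084), and without HFD library 401 or 403 or SW library 408 or 409 for Cxcl1 (adjusted p up to 0.13). Both were also lost with at least 1 count in any library, and that of Cxcl1 in a fit of SW and HFD libraries alone (adjusted p up to 0.14). Cxcl3, Cxcl5 and Cxcl15 were under 1 CPM in every adipocyte library and were not tested there.

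Interferon-induced ligands of Cxcr3, the receptor of activated T cells and NK cells, were higher after the switch, while with HFD Cxcl9 fell and Cxcl10 did not pass the test (adjusted p = 0.92). Cxcl9 measured 59.5, 67.1 and 82.5 CPM in LFD, 37.9, 30.2 and 33 CPM in HFD and 201, 108 and 55.5 CPM in SW libraries. It was 2.09-fold lower in HFD than in LFD (log2 -1.07 ± 0.37 SE, adjusted p = 0.033), a call lost without LFD library 405 or 406 or any HFD library (adjusted p up to 0.10) and with at least 1 count in any library (0.13). It was 3.64-fold higher in SW than in HFD (log2 1.86 ± 0.37 SE, adjusted p = 0.0083), which held without each library in turn. Cxcl10 measured 6.41, 3.64 and 4.52 CPM in LFD, 4.23, 6.6 and 4 CPM in HFD and 27.9, 13.1 and 8.29 CPM in SW libraries. All SW libraries were above the others, by 3.3-fold against HFD (log2 1.72 ± 0.41 SE, adjusted p = 0.014) and 3.44-fold against LFD (adjusted p = 0.019). Library 407 was the highest SW library and 409 the lowest for both ligands, the same order as in the sums of the T cell and NK cell, macrophage, dendritic cell and adipocyte markers. The sums of the B cell, neutrophil, endothelial, fibroblast and progenitor, and mesothelial markers stood in other orders. Leaving out HFD library 401 or 403 ended the first Cxcl10 call (adjusted p up to 0.063), and leaving out LFD library 405 or 406 the other (adjusted p up to 0.085). Cxcl11 was under 1 CPM in all libraries.

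**Figure D2:**
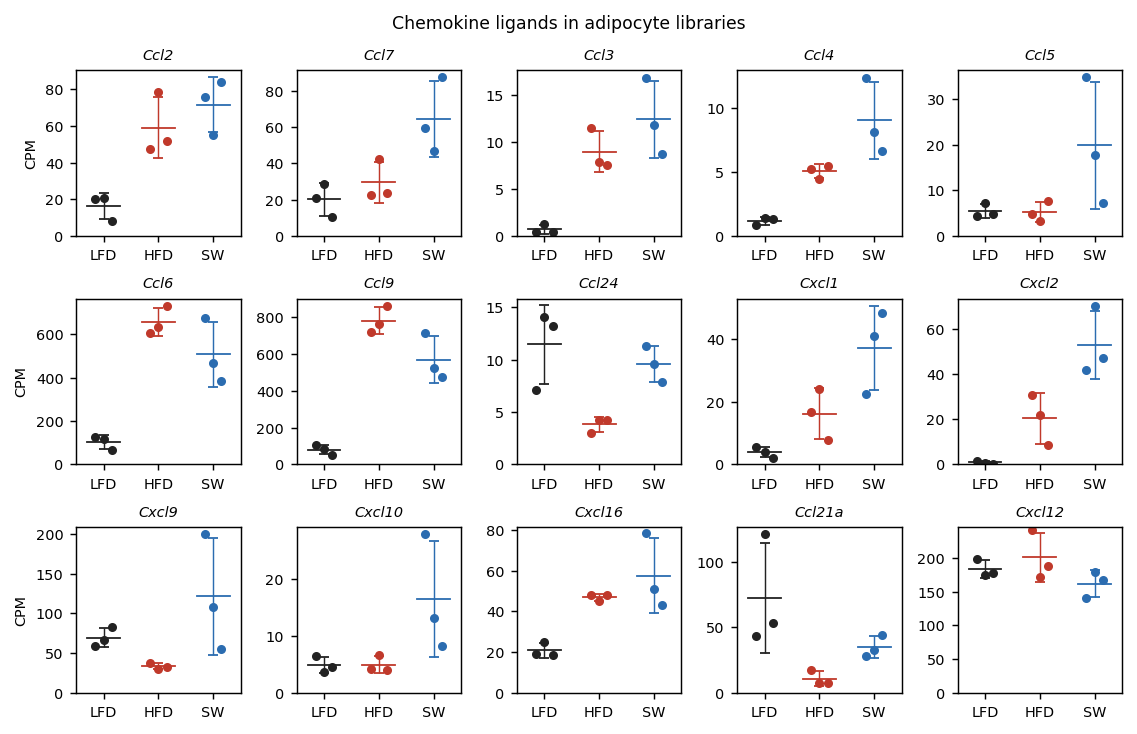
Level (y axis, CPM, from 0) of 15 ligands in the 9 adipocyte libraries by diet (x axis). Points are libraries, horizontal lines group means and bars ± SD; Ccl9 lies at 52.5 to 106 CPM in LFD and at 474 CPM or more in HFD and SW, while Cxcl9 lies at 30.2 to 37.9 CPM in HFD, below both other diets.

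Of 7 lymphoid and barrier CC ligands tested, 3 fell with HFD, against 25% of all genes. The 3 were Ccl21a, a Ccl21c identifier and Ccl27a, so 2 of them count the same ligand. The lymphatic ligand Ccl21 is coded by near-identical genes between which reads are divided by estimation, so its identifiers are uncertain singly and were also summed. The sum was 65.9, 186 and 81.9 CPM in LFD, 17.4, 11.8 and 11.4 CPM in HFD and 42.2, 40.1 and 69.97 CPM in SW libraries. Every HFD library was below every LFD and SW library for this sum, and SW overlapped LFD. Ccl21a alone measured 43.4, 121 and 53.1 CPM in LFD, 17.4, 7.7 and 7.36 CPM in HFD and 27.7, 32.6 and 44.3 CPM in SW libraries. Singly, Ccl21a was 6.94-fold lower in HFD than in LFD (log2 -2.79 ± 0.45 SE, adjusted p = 0.00066) and 3.31-fold higher in SW than in HFD (log2 1.73 ± 0.44 SE, adjusted p = 0.017), a call lost without HFD library 402 or 403 and with at least 1 count in any library (adjusted p up to 0.077). The Ccl21c identifier ENSMUSG00000096271 also fell with HFD (log2 -3.78 ± 0.79 SE, adjusted p = 0.0035), and its counts in HFD library 401 were 0. Ccl19, the other ligand of Ccr7, measured 4.74, 12 and 6.65 CPM in LFD, 5.37, 6.03 and 4.65 CPM in HFD and 18.9, 8.53 and 7.97 CPM in SW libraries and rose after the switch (2.2-fold, adjusted p = 0.046), a call lost without SW library 407 or any HFD library (adjusted p up to 0.16). The Ccl19 call was also lost by limma-voom, with at least 1 count in any library and after the GC correction.

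Ccl27a, a ligand of Ccr10 best known from skin, measured 6.13, 7.69 and 8.32 CPM in LFD, 2.15, 2.88 and 2.3 CPM in HFD and 6.84, 4.67 and 4.95 CPM in SW libraries. It was 3.04-fold lower in HFD than in LFD (log2 -1.61 ± 0.22 SE, adjusted p = 0.00026) and 2.23-fold higher in SW than in HFD (log2 1.16 ± 0.22 SE, adjusted p = 0.0071), with no overlap. Ccl22, a dendritic cell and macrophage product that attracts regulatory T cells, measured 2.09, 1.98 and 1.07 CPM in LFD, 2.62, 2.43 and 3.4 CPM in HFD and 5.71, 5.53 and 3.41 CPM in SW libraries. Its groups stood in that order without overlap, and SW against LFD passed (2.79-fold, log2 1.48 ± 0.32 SE, adjusted p = 0.01). SW against HFD missed the threshold in edgeR (log2 0.80 ± 0.29 SE, adjusted p = 0.059) and passed by DESeq2, by limma-voom, with upper-quartile factors and without SW library 409 (adjusted p from 0.036 to 0.16 over the alternatives).

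Of the other CXC, CX3C and XC ligands, Cxcl16 and Cxcl14 rose with HFD. Cxcl16, a membrane-bound ligand of Cxcr6 and a scavenger receptor of macrophages, measured 19.2, 25 and 18.3 CPM in LFD, 48.1, 45 and 47.9 CPM in HFD and 78.4, 50.8 and 43.2 CPM in SW libraries. It was 2.2-fold higher in HFD than in LFD (log2 1.14 ± 0.21 SE, adjusted p = 0.0017) and 2.71-fold higher in SW than in LFD (adjusted p = 0.0014). Cxcl14 measured 22.6, 16.1 and 9.86 CPM in LFD, 30.4, 26.5 and 28.2 CPM in HFD and 24.6, 20.9 and 15.2 CPM in SW libraries, and its 1.74-fold rise with HFD (adjusted p = 0.029) was lost without LFD library 405 or 406 or HFD library 401 or 403 (adjusted p up to 0.081). Cxcl12 (SDF-1), the homeostatic ligand of Cxcr4 made by stromal cells, differed little: it measured 199, 174 and 178 CPM in LFD, 241, 172 and 189 CPM in HFD and 140.1, 179 and 167 CPM in SW libraries. Its log2 fold change between HFD and LFD was 0.11 ± 0.16 (adjusted p = 0.59). Cx3cl1, Cxcl13 and Xcl1 did not pass in edgeR in adipocytes, and without SW library 409 Xcl1 passed in SW against LFD (adjusted p = 0.021).

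The members that fell from HFD to SW were all receptors. Of the 12 receptors tested in adipocytes, 5 rose with HFD and none fell, and of the 28 ligands tested 9 rose and 5 fell. Of all genes, 26.5% rose and 25% fell with HFD. From HFD to SW, 3 receptors were lower and none higher, while 12 ligands were higher and none lower. In that comparison 15.6% of all genes were higher and 15.9% lower. In SW against LFD 5 receptors were higher, against 10.9% of all genes. The difference between ligands and receptors was not tested. Ccr3, the receptor of eosinophils, had 5 counts over the 3 LFD libraries and 354 over the 3 HFD libraries, or 0.139, 0.138 and 0.119 CPM in LFD, 7.05, 3.34 and 6.51 CPM in HFD and 3.37, 2.25 and 2.38 CPM in SW libraries. The ratio of summed counts per library size between HFD and LFD was 40.02 (95% exact interval for counting error 17.0 to 124). Ccr3 passed the filter on low counts only through its HFD and SW libraries. Its test (log2 fold change 5.30 ± 0.47 SE, adjusted p = 2.3e-05) carries that limit. With at least 10 counts in every library Ccr3 was too low to test. Its fall in SW (2.1-fold, adjusted p = 0.027) was lost without HFD library 401 or 403 or SW library 408 or 409 (adjusted p up to 0.10).

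Ccr1, a receptor of monocytes and neutrophils for Ccl3, Ccl6 and Ccl9, measured 5.3, 5.16 and 1.31 CPM in LFD, 16.2, 16.5 and 20.7 CPM in HFD and 12.6, 11.0 and 8.74 CPM in SW libraries. It was 4.34-fold higher in HFD than in LFD (log2 2.12 ± 0.35 SE, adjusted p = 0.00085) and 2.65-fold higher in SW than in LFD (adjusted p = 0.023), the latter call lost without SW library 407 or 408 (adjusted p up to 0.058). Ccr2 did not pass: it measured 27.7, 28.6 and 13.5 CPM in LFD, 28.7, 40.1 and 45 CPM in HFD and 50, 30.7 and 20.4 CPM in SW libraries, with a log2 fold change of 0.67 ± 0.35 between HFD and LFD (adjusted p = 0.13). The HFD libraries were above the LFD libraries for Ccr2; library 401 was the HFD library nearest to LFD. Cx3cr1, a receptor of resident macrophages and patrolling monocytes, measured 3.21, 3.41 and 0.951 CPM in LFD, 5.03, 4.7 and 4.33 CPM in HFD and 2.81, 1.93 and 1.54 CPM in SW libraries. It fell 2.24-fold from HFD to SW (adjusted p = 0.043), a call lost without SW library 408 or 409 or any HFD library (adjusted p up to 0.12).

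Among lymphocyte receptors, Cxcr3 and Ccr7 were near the floor in adipocyte libraries, while Cxcr4 was not. Cxcr3 measured 0.837, 0.829 and 0.713 CPM in LFD, 2.95, 1.33 and 2.1 CPM in HFD and 3.84, 2.84 and 1.22 CPM in SW libraries, 2.59-fold higher in HFD (adjusted p = 0.035) and 3.23-fold higher in SW (adjusted p = 0.037) than in LFD. Ccr7, which guides dendritic and T cells to lymph nodes, measured 1.53, 1.8 and 0.951 CPM in LFD, 1.48, 2.43 and 1.74 CPM in HFD and 3.47, 5.2 and 2.31 CPM in SW libraries, and passed in SW against LFD (2.49-fold, adjusted p = 0.037) and, by DESeq2 or without SW library 409, against HFD (adjusted p = 0.046 and 0.033). Cxcr4, the receptor of Cxcl12 on most leukocytes, measured 18.5, 17.5 and 11.9 CPM in LFD, 31.1, 26.3 and 19.5 CPM in HFD and 15.7, 22.5 and 25.9 CPM in SW libraries, and rose 1.58-fold with HFD (adjusted p = 0.042). These calls depended on single libraries and on the method. Leaving out any LFD library or HFD library 401 or 403 ended that of Cxcr3 with HFD (adjusted p up to 0.11), any LFD library or SW library 407 or 408 those of Cxcr3 (adjusted p up to 0.11) and Ccr7 (adjusted p up to 0.13) in SW, and LFD library 405 or 406 or HFD library 401 or 402 that of Cxcr4 (adjusted p up to 0.14). By limma-voom neither Cxcr3 call passed, nor that of Ccr7 against LFD, nor that of Cxcr4. The Cxcr4 call was also lost with upper-quartile factors and after the GC correction. That of Ccr7 against LFD was also lost in a fit of SW and LFD libraries alone. Cxcr2, Cxcr5, Cxcr6 and Xcr1 did not pass in edgeR in adipocytes, although Cxcr2 was lower with HFD without HFD library 402 (adjusted p = 0.048) and Cxcr6 higher in SW than in HFD and LFD without SW library 409 (adjusted p = 0.0401 and 0.027). Cxcr1, Ccr4, Ccr6, Ccr8, Ccr9, Ccr10 and Ccr1l1 were too low to test there.

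**Figure D3:**
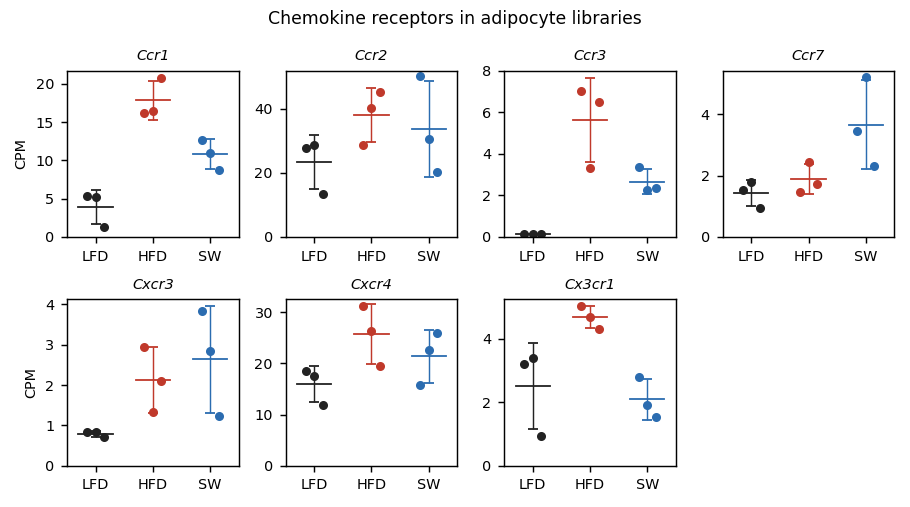
Level (y axis, CPM, from 0) of 7 receptors in the 9 adipocyte libraries by diet (x axis), with group means (lines) and SD (bars). Ccr1 lies at 16.2 CPM or more in HFD, 8.74 to 12.6 CPM in SW and 5.3 CPM or less in LFD, while Ccr3 and Ccr2 overlap between HFD and SW.

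In the wider pathway most signalling genes rose with HFD, in the libraries where macrophage markers also rose, while the other lists were mixed. Of 30 genes that carry the signal of chemokine receptors, 23 rose and 1 fell with HFD, against 26.5% and 25% of all genes. Their median log2 fold change was 1.19 against -0.03 for all genes. From HFD to SW 1 rose and 11 fell, against 15.6% and 15.9% of all genes. In SW 17 were higher and 1 lower than in LFD, against 10.9% and 6.18% of all genes. Rises with HFD included those of Rgs1, which ends G protein signalling (log2 5.77 ± 0.52 SE, adjusted p = 2.5e-05), Dock2, which activates Rac in leukocytes (3.70 ± 0.24, adjusted p = 6.3e-06) and the exchange factor Vav1 (3.11 ± 0.25, adjusted p = 1.3e-05). Of 5 tested atypical receptors, which bind chemokines without G protein signalling, Ccrl2 rose with HFD (1.63 ± 0.32, adjusted p = 0.0022) and Ackr4, the scavenger of Ccl19 and Ccl21, fell (-1.27 ± 0.30, adjusted p = 0.0056). Pf4 (Cxcl4), outside the symbol rule, rose with HFD (1.13 ± 0.27, adjusted p = 0.0063) and Ppbp did not pass. Among 8 regulators and modifiers of chemokines, Nfkb1 (0.83 ± 0.14, adjusted p = 0.00082) and Hif1a (0.72 ± 0.14, adjusted p = 0.0024) rose with HFD, and the interferon-regulated factor Irf1 (-0.81 ± 0.18, adjusted p = 0.0039) and Rela (-0.31 ± 0.11, adjusted p = 0.037) fell. From HFD to SW, Nfkb1 (-0.68 ± 0.14, adjusted p = 0.0083) and Hif1a (-0.79 ± 0.14, adjusted p = 0.0065) fell and Irf1 (0.70 ± 0.18, adjusted p = 0.017) and Rela (0.36 ± 0.11, adjusted p = 0.035) rose.

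As macrophage markers rose in the same libraries, each member was also given per 1000 CPM of the macrophage marker sum, without a test. On this scale 34 of the 40 tested members were lower in every HFD than in every LFD library, against 95.7% of all genes tested, and 2 were higher, with Ccr3 among them, against 0.837%. Ccr3 was 0.135 to 0.203 per 1000 in LFD, where it rests on 5 counts in all, 0.422 to 0.802 in HFD and 0.377 to 0.421 in SW libraries. Ccl9 kept nearly the same ratio, at 89.7 to 103 in LFD, 82.3 to 96.5 in HFD and 83.9 to 88.7 in SW libraries. Ccl2 was lower per macrophage marker in HFD (5.37 to 9.89) than in LFD (13.8 to 23.1). Cxcl2 was 0.609 to 1.49 in LFD, 0.91 to 3.48 in HFD and 5.15 to 11.7 in SW libraries, where the SW libraries did not overlap the others. All these values are from adipocyte libraries. In SVC, Ccl9 was 16.0 per 1000 in the LFD library, 58.4 to 85.7 in HFD and 41.2 to 86.8 in SW libraries.

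In SVC the comparison that could be tested was SW against HFD, and it rested on 2 HFD libraries that differed strongly. Of 44 members tested, 2 rose (Ccl21a and the Ccl21c identifier) and 2 fell, with Ccl2 among them, or 4.55% in each direction, against 5.71% and 11.7% of 16319 genes (17.5% in either direction). Without SW library 412 or 413, and after a correction for GC content, no member and no gene passed, with 4562 genes at an unadjusted p under 0.05 after the GC correction and 4217 and 5435 without libraries 412 and 413. Leaving out HFD library 212 or 411 leaves 1 HFD library and no spread within that group. Calls of such fits are not counted here. Without SW library 414, 2 members rose and 1 fell. Ccl2 measured 63.7 and 50.8 CPM in HFD libraries 212 and 411 and 22.5, 30.9 and 33.3 CPM in SW libraries 412, 413 and 414. This was a 2.13-fold fall (log2 -1.09 ± 0.26 SE, adjusted p = 0.044). The log2 fold change became -0.17 after the GC correction (adjusted p = 0.65), and the call was also lost by limma-voom and without any 1 SW library. The Ccl21 sum was 29.5 and 37.4 CPM in HFD and 292, 190.02 and 331 CPM in SW libraries, and Ccl21a rose 8.34-fold (log2 3.06 ± 0.33 SE, adjusted p = 0.036). The groups of these genes did not overlap, which held for 31.3% of all genes in the upward and 28.3% in the downward direction.

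Library 212 set the mean of several ligands in HFD SVC. Cxcl2 measured 481 CPM in library 212 and 6.94 CPM in library 411, Cxcl1 171 and 0.898 CPM, Ccl4 78.3 and 9.79 CPM, Ccl3 70.1 and 8.16 CPM, and Cxcr4 115 and 25.2 CPM. In SW libraries Cxcl2 measured 12.3, 12.5 and 16.2 CPM, between the HFD libraries. None of these genes passed in SW against HFD in edgeR with both HFD libraries. By DESeq2, Cxcl2 (log2 -4.30, adjusted p = 0.024), Ccl4 (-2.50, adjusted p = 0.0087) and Cxcr4 (-1.52, adjusted p = 0.044) were lower in SW. Leaving out library 411 leaves library 212 alone in HFD, so no call is given for that fit. The log2 fold change of Cxcl2 went from -4.33 ± 1.39 with both HFD libraries to -5.31 without library 411 and 1.04 without library 212. Ccr2 measured 30.7 and 135 CPM in HFD and 15, 23.1 and 25.1 CPM in SW libraries (log2 -2.02 ± 0.56, adjusted p = 0.053). It passed by DESeq2 (adjusted p = 0.0041), with at least 10 counts in every library (0.033) and in a fit of SW and HFD libraries alone (0.0497). Cxcr3 and Ccl22 were higher in every SW library than in both HFD libraries without passing in edgeR. Cxcr3 measured 4.81 and 15.7 CPM in HFD and 40.3, 22.1 and 37.9 CPM in SW libraries (log2 1.66 ± 0.54 SE, adjusted p = 0.071), and Ccl22 measured 6.04 and 16.7 CPM in HFD and 30.1, 26.9 and 42.7 CPM in SW libraries (log2 1.49 ± 0.46 SE, adjusted p = 0.064). Both passed by DESeq2 (adjusted p = 0.0114 for Cxcr3 and 0.0111 for Ccl22), and Ccl22 also with a filter of at least 1 count in any library (0.044).

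The single LFD library of SVC is given without a test. It lay below both HFD libraries for 19 of the 44 members and above both for 15, against 41.6% and 38.1% of all genes. Ccl3 measured 3.03 CPM there, Ccl9 91.7 CPM and Cxcr4 7.58 CPM, each below all HFD and SW libraries, as were 15 members in all, against 23% of genes. Ccl24 measured 142 CPM, Ccl11 165 CPM, Cxcl13 22.8 CPM and Ccl21a 470.2 CPM, each above all HFD and SW libraries, as were 9 members in all, against 24.9% of genes. Cxcr3, at 28.2 CPM, lay above both HFD libraries and within the SW libraries.

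**Figure D4:**
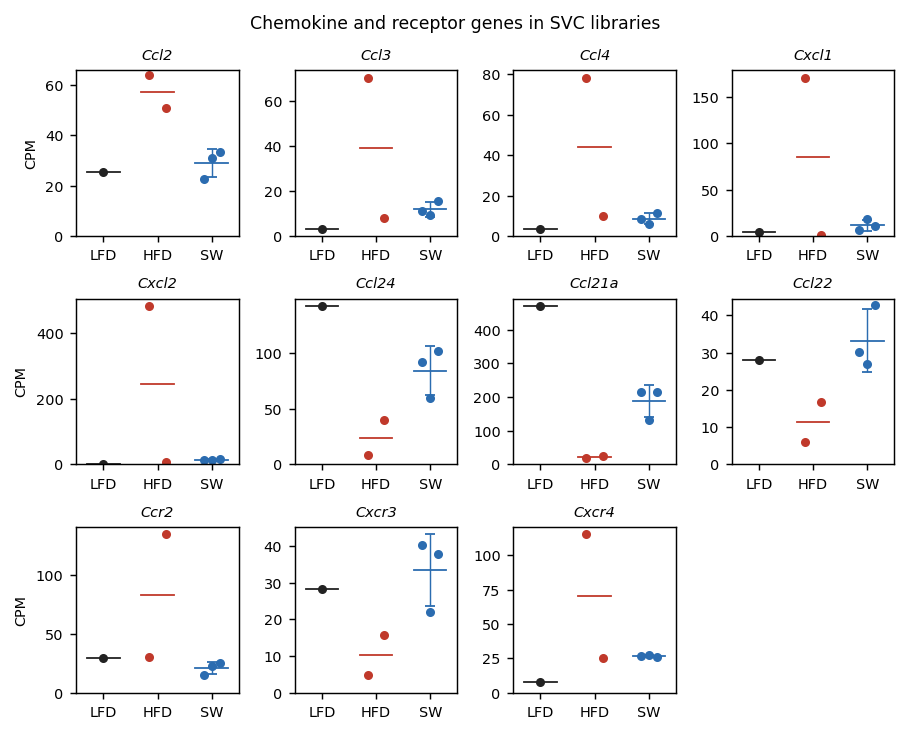
Level (y axis, CPM, from 0) of 11 members in the 6 SVC libraries by diet (x axis), with points for libraries, lines for means and SD bars for SW alone, since LFD has 1 and HFD 2 libraries. Cxcl2, Cxcl1, Ccl3, Ccl4 and Cxcr4 are high in 1 of the 2 HFD libraries, and Ccl21a is 133 CPM or more in SW and 23.7 CPM or less in HFD.

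The fractions were compared within a diet in 1 fit of all libraries. In SW mice, 19 of 44 members were lower and 4 higher in adipocytes than in SVC, or 43.2% and 9.09%, against 35.6% and 32.8% of 17441 genes (68.4% in either direction). The libraries of the fractions did not overlap for 19 lower and 10 higher members, against 35.8% and 35% of all genes. The genes higher in the adipocyte fraction were Ccl2 (2.47-fold, log2 1.30 ± 0.31 SE, adjusted p = 0.0024), Ccl7 (3.13-fold, 1.64 ± 0.39, adjusted p = 0.002), Cxcl9 (3.34-fold, 1.74 ± 0.63, adjusted p = 0.026) and the Ccl25 identifier ENSMUSG00000023235 (1.85 ± 0.42, adjusted p = 0.0016). After a correction for GC content none of the 4 passed, with 0.29 for Ccl2 (adjusted p = 0.43) and 0.45 for Ccl7 (adjusted p = 0.29). Cxcl9 also did not pass without adipocyte library 407 or SVC library 412 (adjusted p up to 0.088), or with at least 1 count in any library. The genes lower in adipocytes included Cxcr3 of activated T cells (12.8-fold, log2 -3.68 ± 0.48 SE, adjusted p = 1.9e-05), Ccl24 (8.79-fold, -3.14 ± 0.46, adjusted p = 5.0e-05) and the dendritic cell genes Ccl22 (6.81-fold, -2.77 ± 0.36, adjusted p = 1.9e-05) and Ccr7 (5.48-fold, -2.45 ± 0.38, adjusted p = 6.9e-05), and these 4 calls held in every alternative that tested them. Ccl9, Ccr2 and Cxcl12 did not pass between fractions in SW mice in edgeR. Ccl9 was lower in adipocytes by DESeq2 (log2 -0.996, adjusted p = 0.029), after the GC correction (-2.29, adjusted p = 0.0015) and without SVC library 413 (-1.14, adjusted p = 0.024), with adjusted p up to 0.49 over the other alternatives.

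**Figure D5:**
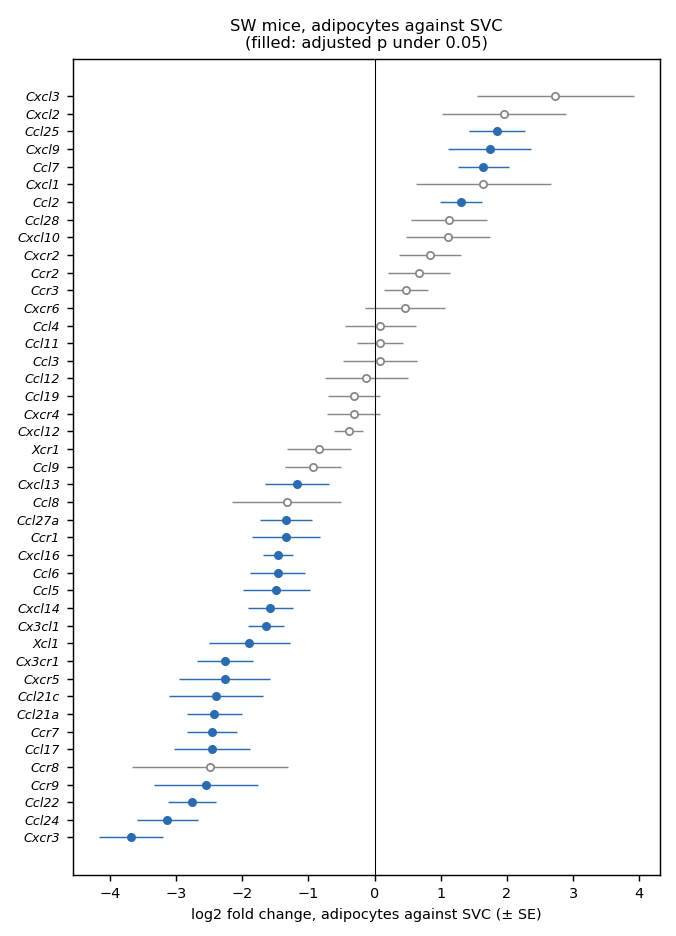
Log2 fold change between adipocytes and SVC of SW mice (x axis, with SE) for 43 of the 44 members tested (y axis), with 3 libraries in each fraction. Filled points have an adjusted p under 0.05; 4 lie to the right of 0 (higher in adipocytes) and 19 to the left.

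In HFD mice, 15 members were lower in adipocytes than in SVC, or 34.1%, against 16.2% of all genes (29.1% in either direction). The libraries did not overlap for 18 lower and 2 higher members, against 25.8% and 25.7% of all genes. None was higher by edgeR, against 12.9% of all genes, while 1 was higher at an unadjusted p under 0.05, 1 by DESeq2 and 1 by limma-voom. Leaving out adipocyte library 402 cut the lower members to 9. Ccr7 was the 1 member whose call held in every alternative that tested it (6.67-fold lower, log2 -2.74 ± 0.41 SE, adjusted p = 0.00053). For Cxcl2, Ccl3 and Cxcr4 the direction turned without SVC library 212, to log2 fold changes of 1.54, 0.14 and 0.021. For 5 members the fractions responded differently to the switch (interaction term), or 11.4%, against 27.1% of all genes.

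Levels between genes were compared per kilobase of the longest annotated transcript. In adipocytes of LFD mice the highest mean levels were those of Ccl21a (83.2 CPM per kb), Ccl6 (71.4) and Ccl11 (46.8). The first place of Ccl21a rested on library 405, without which it was at 55.4 CPM per kb and Ccl6 at 66.6. In HFD adipocytes Ccl6 (455 CPM per kb) and Ccl9 (261) came first, followed by Ccl8 (90.2), and the same genes led in SW adipocytes at 353, 189.96 and 176 CPM per kb, with Ccl8 at 84.4 without library 407 and above Ccl9 without library 408 or 409. In SVC, Ccl6 led in HFD (998 CPM per kb) and SW (973) libraries, and Ccl21a in the LFD library (540.5). Ccl6 also led in each HFD library of SVC, at 444 CPM per kb in library 212 and 1552 in library 411.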

How the data were processed

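The authors aligned poly(A) RNA reads with Bowtie2 and estimated gene levels with RSEM on mm9, per the submitters' processing notes, which also name limma; versions are not given in the sources used here. The deposited values are expected counts (estimated counts), whole numbers as deposited, in 1 table per fraction. RSEM divides reads between near-identical genes by estimation, so Ccl21a and the Ccl21c identifiers are uncertain singly, as is Ccl27a, which overlaps another gene. Columns were matched to groups by the diet in their names, and 3 columns without such a match were not used. Of the 18 labelled libraries, 15 entered. The labels give a paired-end run for every adipocyte and SVC SW library, for some beside a single-end run. Some SVC libraries of HFD and LFD had single-end runs alone. Columns could not be matched to these labels, so the part of run layout in comparisons with SVC was not tested. Every pair of libraries within a group differed by more than sampling noise (chi-square per degree of freedom at least 12.8).

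Genes were filtered with filterByExpr (minimum count 10), scaled by TMM and tested by the two-sided quasi-likelihood test of edgeR 4.0.16 (R 4.3.3), in 1 fit of 9 adipocyte libraries, 1 of 6 SVC libraries and 1 of all 15, with Benjamini-Hochberg adjustment over all genes tested and a threshold of 0.05. All p-values named adjusted come from this test unless another tool is named. CPM are on the scale of the fit of all 15 libraries. Levels per kilobase used GENCODE M21 (59 of 63 identifiers matched), and promoters the RefSeq table of GRCm38.p6, whose build differs from mm9, so no position was compared with the counts. The script was tested on simulated data. The interval of a ratio of counts is exact at 95% and covers counting error only.

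Values in every library are given by a rule that chose 29 members, of which 1, counted in the totals but not plotted, is not reported here: members past the threshold in an adipocyte comparison or in SVC SW against HFD at a mean log2 CPM from 1 upward, at most 6 per role list in order of their fold change with HFD, and the 3 members of highest CPM in each fraction. Some other members are named for a count or a comparison of fractions, and the values of Ccl22, Cxcr3 and others in SVC were chosen after they were seen. The members and lists were chosen with earlier results of these data known. Alternatives were DESeq2 1.42.0, limma-voom (limma 3.58.1), RLE and upper-quartile factors, filters of at least 1 count in any library and of at least 10 counts in every library, a loess correction for GC content (span 0.5), fits restricted to the compared diets, and the omission of 1 library at a time. The means per kilobase without each library were added after seeing the data.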

Additional observations from a re-analysis of the deposited data

Results flagged for a closer look

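Adipocytes and SVC differed in their response to the switch for 5 members by the interaction test in edgeR's quasi-likelihood fit of all 15 libraries, out of 44 tested, 3 in one direction (6.82%) and 2 in the other (4.55%), against 15.7% and 11.4% of all genes. Values are the log2 change in adipocytes minus that in SVC. Ccl4 gave 3.22 ± 0.78 SE (adjusted p = 0.0097), and 1.04 without SVC HFD library 212, which leaves 1 library in that group. Cxcl2 gave 5.55 ± 1.38 SE (adjusted p = 0.012), and 0.41 without library 212. Cxcl3 gave 5.95 ± 1.56 SE (adjusted p = 0.014) on under 1 CPM in every library but 212, and without that library it was too low to test. Cx3cl1 gave -1.58 ± 0.40 SE (adjusted p = 0.012), and -0.91 (adjusted p = 0.19) after the correction for GC content. Cxcl12 gave -1.01 ± 0.33 SE (adjusted p = 0.038), -0.51 without SVC HFD library 411 and -1.58 without library 212. The Cxcl12 call held in 6 of 18 alternatives. By limma-voom, Ccl4 (adjusted p = 0.052) and Cxcl2 (adjusted p = 0.12) did not pass.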

How the results depend on the processing

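No paired analysis was possible because the columns carry library numbers that appear in no label. In adipocytes, the members higher with HFD fell from 14 to 9, those higher in SW than in LFD from 18 to 11, and those lower in SW than in HFD from 3 to 1 when at least 10 counts were asked of every library, a filter that tests fewer genes. Members higher in SW than in HFD went from 12 to 6 with at least 1 count in any library. Leaving out 1 library at a time gave 11 to 14 higher and 4 to 6 lower with HFD, 4 to 13 higher and 1 to 3 lower in SW than in HFD, and 13 to 22 higher and 0 lower in SW than in LFD. Of the calls, 15 of 19 with HFD, 4 of 15 in SW against HFD and 11 of 18 in SW against LFD held in every alternative that tested them. Upper-quartile factors moved the median of all genes with HFD to -0.12 and the split of calls to 3294 higher and 4283 lower, against 3836 and 3612.

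In SVC SW against HFD, higher members went from 2 to 6 by DESeq2, 4 with at least 1 count in any library and 0 with the GC correction, and lower ones from 2 to 6 by DESeq2, 1 by limma-voom, 4 with at least 10 counts in every library and 0 with the GC correction. Leaving out 1 SW library gave 0 to 2 higher and 0 to 1 lower, and none of the 4 calls held in every alternative. All genes called there went from 2849 to 5222 by DESeq2, 1719 by limma-voom and 593 without SW library 414. The ranges below for HFD and for the difference between fractions include fits with 1 SVC HFD library. In such fits that group has no spread of its own. Between fractions in HFD, higher members went from 0 to 1 by DESeq2 and by limma-voom and lower ones from 15 to 4 with at least 10 counts in every library, with 0 to 3 and 9 to 18 on leaving out 1 library. In SW, higher members went from 4 to 0 with the GC correction and lower ones from 19 to 8 with at least 10 counts in every library, with 3 to 5 and 14 to 18 on leaving out 1 library. For the difference between fractions, higher members went from 3 to 6 by DESeq2 and 5 with upper-quartile factors or at least 10 counts in every library, and lower ones from 2 to 1 with upper-quartile factors or at least 1 count in any library and 0 with the GC correction, with 1 to 10 and 1 to 6 on leaving out 1 library. Without SVC library 212, adipocytes against SVC in HFD reversed for Ccl3, Cxcr4 and Cxcl2, whose log2 values ran from -2.96, -2.17 and -4.57 without library 411 to 0.14, 0.021 and 1.54 without 212. Other than where the filter or the smaller number of libraries sets the change, the cause was not tested. Levels under 1 CPM rest on few counts. They limit what can be said of the rarer receptors and of fold changes from such LFD levels, as for Cxcl2 and Ccl3.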
